A study of Mus musculus with 44 samples.

Results

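The genes described here are 41 genes that carry vesicles between the endoplasmic reticulum (ER) and the Golgi apparatus, taken as a set chosen by function. Members were found by symbol among the array's probe sets that name 1 single gene, which gave 82 probe sets for the 41 genes, out of 18193 genes that have such a probe set. The brightest probe set stood for each gene, and 40 members passed the filter on dim genes and were tested, among 11970 genes tested in all. The exception was Tmed2, whose 1 single-symbol probe set lay between 4.18 and 5.91 on the log2(signal + 16) scale over all 44 arrays, below the filter at 6.21.

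The arrays measured RNA from CH12.LX, a mouse B cell lymphoma line that lipopolysaccharide (LPS), a bacterial cell wall component, drives towards antibody secretion. Untreated cells were taken at 0 h. All other cells received LPS, and with it 0.01% dimethyl sulfoxide (DMSO) as vehicle or 10 nM TCDD (2,3,7,8-tetrachlorodibenzo-p-dioxin, which binds the aryl hydrocarbon receptor), and were harvested after 8, 12, 24, 36 or 48 h. Each of the 11 groups holds 4 arrays, and the replicate number stands for a day of treatment and harvest. LPS and vehicle arrived together, so the comparison of vehicle cells with untreated cells holds time in culture, LPS and DMSO at once. All groups come from 1 tumour cell line, so the spread is that between cultures on different days and not between animals.

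Newly made secretory and membrane proteins leave the ER in vesicles coated by COPII: the GTPases Sar1a and Sar1b start the coat on a scaffold of Sec16a, Sec23 and Sec24 proteins form its inner layer and select cargo, and Sec13 and Sec31a form its outer cage. COPI vesicles, made of coatomer (Copa, Copb1, Copb2, Copg1, Cope, Copz1 and Arcn1) on the GTPases Arf1 and Arf4 after activation by Gbf1, return material from the Golgi to the ER. Tethers catch the vesicles and SNARE proteins fuse them with the target membrane. An antibody-secreting B cell enlarges its ER and moves large amounts of immunoglobulin along this route, and Xbp1, a transcription factor of the unfolded protein response, is known to raise many of its genes.

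Promoters are shown first for the members whose window holds the letters TGACGTGG, a core element that Xbp1 and Atf6 are known to bind, because these include the members whose course differed most between TCDD and vehicle cells. Windows of 300 bases (250 before to 50 after a start) were read from the RefSeq table of build GRCm38.p6, which holds 41 windows for 36 of the 41 members. The letters, on either strand, occurred in 7 of these 36 members (19.4%), in 105 of 9717 tested genes with a window (1.08%) and in 0.676% of all 32851 windows. Each line gives a stretch of 30 bases, 5′ to 3′ on the gene's strand, with the match in capitals; CCACGTCA is the same element read from the other strand.
Sec24d (chr3:123267459-123267488, plus strand): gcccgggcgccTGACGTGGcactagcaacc
Sec23a (chr12:59011993-59012022, minus strand): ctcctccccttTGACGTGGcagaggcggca
Stx5a (chr19:8741422-8741451, plus strand): tggcgcagcagCCACGTCAccgagttagga
Copb1 (chr7:114254690-114254719, minus strand): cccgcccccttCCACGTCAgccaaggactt
Copb2 (chr9:98563713-98563742, plus strand): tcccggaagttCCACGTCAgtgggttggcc
Gbf1 (chr19:46152535-46152564, plus strand): gaggctagttaCCACGTCAgtgagctgaca
Arf1 (chr11:59228228-59228257, minus strand): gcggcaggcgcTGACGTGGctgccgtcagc
The Stx5a window holds a second match that begins 22 bases after the first. The 5 letters ACGTG, which lie within that core, occurred in 25 of the 36 members (69.4%) against 28.9% of tested genes. The full ER stress response element, CCAAT, 9 bases and CCACG, occurred in 0 of the 36 members and in 0.119% of all windows. The letters GCGTG, the core to which the aryl hydrocarbon receptor is known to bind, occurred in 19 of the 36 members (52.8%) against 54.5% of tested genes. These matches describe letters in a window and were not tested against the array values.

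Of the 44 arrays, 4 stood apart by signal or RNA quality. Median array signals ran from 45.2 to 99.2, and the highest were those of untreated replicate 4 (99.2) and DMSO 12 h replicate 4 (87.9). The 3' to 5' log2 ratio of the transferrin receptor control probe sets, a measure of RNA quality, had a median of 1.18 but reached 3.04 in untreated replicate 3 and 2.85 in replicate 2 of DMSO 48 h. Where leaving out these 4 arrays ended a call or moved a called change by over 1.5 times, the value without them is given beside it, and the comparison of 36 h with 8 h, which uses none of them, is given as well. The 8 B cell genes measured passed the filter, with group means from 10.30 to 14.76 for Cd79a, Cd79b, Ms4a1, Blnk, Ighm and Cd74, from 7.22 to 10.28 for Cd22 and from 5.99 to 6.79, at the filter, for Pax5. Of 8 T cell genes, Cd3d, Cd4 and Thy1 stayed below the filter in every group and Cd8a (8.62 to 9.38), Zap70, Cd5, Cd3e and Cd3g passed it. Of 7 macrophage genes, Lyz2 and Itgam stayed below it and Cd68 (9.43 to 10.67), Csf1r, Adgre1, Cd14 and Fcgr1 passed.

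In vehicle cells the set dipped and then rose. The mean of the 40 tested members was 11.16 in untreated cells, 11.05 at 8 h, 11.06 at 12 h, 11.32 at 24 h, 11.46 at 36 h and 11.56 at 48 h. TCDD cells followed a flatter course of 11.15, 11.17, 11.30, 11.31 and 11.39 at the same times. At 8 and 12 h the 4 TCDD arrays lay above all 4 vehicle arrays, at 24 h the groups overlapped, and at 36 and 48 h the 4 TCDD arrays lay below all 4 vehicle arrays. On bulk RNA, a change in all cells and a change in the share of cells that express a gene cannot be told apart.

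**Figure D1:**
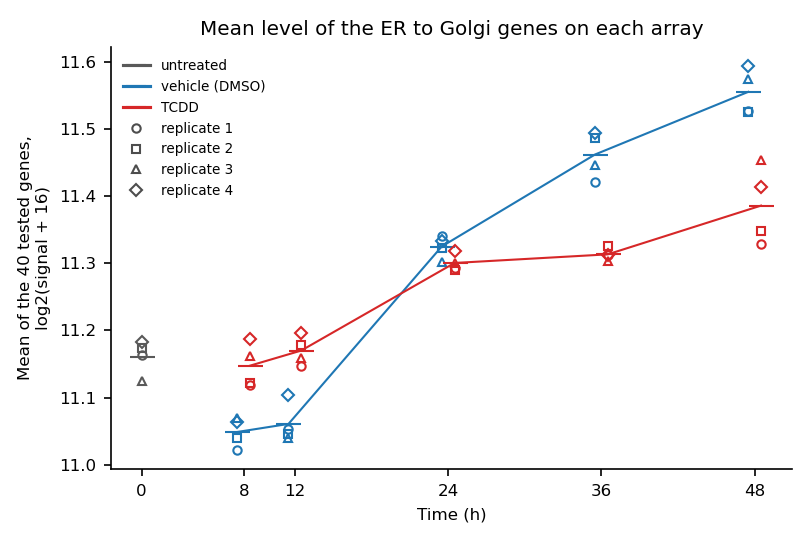
Mean log2(signal + 16) of the 40 tested ER to Golgi genes on each array (y axis) against time in hours (x axis); symbols mark the replicate, short bars and lines the group means of untreated (grey), vehicle (blue) and TCDD (red) cells. Between 8 and 48 h the vehicle mean climbed from 11.05 to 11.56, and the TCDD mean from 11.15 to 11.39.

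Against untreated cells, 8 members fell and 3 rose in vehicle cells at 8 h, by limma with Benjamini-Hochberg adjustment over all genes tested and an adjusted p under 0.05, while 13.4% of all genes tested fell and 11.2% rose. At 12 h, 7 fell and 1 rose (13.8% and 11% of all genes). At 24 h the balance had turned: 13 rose and 2 fell (9.39% and 10.3% of all genes). At 36 h, 19 of 40 rose (15.4% of all genes) with a median member change of 0.30, and at 48 h 20 rose (23.4% of all genes) with a median of 0.24; none passed downward at these times (15.9% and 20.5% of all genes), although 1 and 2 members were lower at an unadjusted p under 0.05. The median change of all genes tested lay between -0.02 and 0.02 at every time. Without the 4 arrays standing apart, 8, 7, 11, 17 and 19 members passed at 8, 12, 24, 36 and 48 h; of the 11, 8, 15, 19 and 20 called with them, 5, 5, 9, 14 and 17 kept their call. With the day as a block 17 passed at 8 h and 13 at 12 h. That fit in limma also called Rab1b (-0.46, adjusted p = 0.000149) and Sec24b (-0.50, adjusted p = 0.00453) lower at 48 h. The share of all genes called is not given for the fits with a block or without the 4 arrays. Their counts show only how the calls moved. The 5 comparisons share the same 4 untreated arrays, so their calls are not separate pieces of evidence.

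Against vehicle cells of the same time, calls were upward with TCDD at 8 h (1 member, Stx5a) and 12 h and downward at 36 and 48 h. At 24 h the only call was upward, while 24 of 40 members had a negative change, as did 6439 of 11970 genes tested. The most calls came at 48 h. At 8 h 1 of 40 members was higher (2.75% of all genes higher, 1.4% lower) and at 12 h 5 were (6.07% and 3.14%). At 24 h 1 member was higher (4.8% and 2.77%). The single calls at 8 and 24 h were below the share of all genes higher. At 36 h 3 members were lower (3.49% of all genes higher, 2.4% lower), and at 48 h 10 were (4.31% and 4.54%). None passed in the other direction at any of these times by limma; at an unadjusted p under 0.05, 4 members were lower at 24 h and none went against the called direction at the other times. Over all 40 members, called or not, 30 had a positive change at 8 h and 34 at 12 h. At 24, 36 and 48 h, 24, 37 and 32 had a negative change. Of all 11970 genes tested, 5760 and 6238 had a positive change at 8 and 12 h. A negative change was seen for 6439, 6168 and 6284 of them at 24, 36 and 48 h. The member medians were 0.09, 0.10, -0.02, -0.13 and -0.16, against -0.01, 0.01, -0.02, -0.01 and -0.02 for all genes tested. Other traffic genes had like medians at the early times: post-Golgi and endosome genes had 0.07 at 8 h and 0.11 at 12 h, with 50 of 71 positive at 12 h, and other ER-Golgi genes had 0.05 and 0.08, with 52 of 75 positive at 12 h. The vehicle arrays of a time enter both its comparisons, so a rise in vehicle cells and a deficit in TCDD cells at that time share their data.

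The counts in the TCDD comparisons were small and moved with the arrays used. For the fits below, the share of all genes called is not given, so their counts show only how the calls moved. With the day as a block, 3, 2 and 6 members passed at 8, 24 and 36 h. The member gained at 24 h was Mcfd2, which was lower with TCDD (-0.23). Without the 4 arrays standing apart, Mcfd2 and Bet1 (-0.31) were gained at 24 h, both lower with TCDD. With each day left out in turn, 5 to 8 passed at 48 h and 0 or 1 at 36 h. With a spread estimated from only the 8 arrays compared, 0 of the 10 called at 48 h passed in limma, although 13 members were lower at an unadjusted p under 0.05; without the 4 arrays standing apart 9 passed at 48 h and 5 at 36 h.

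**Figure D2:**
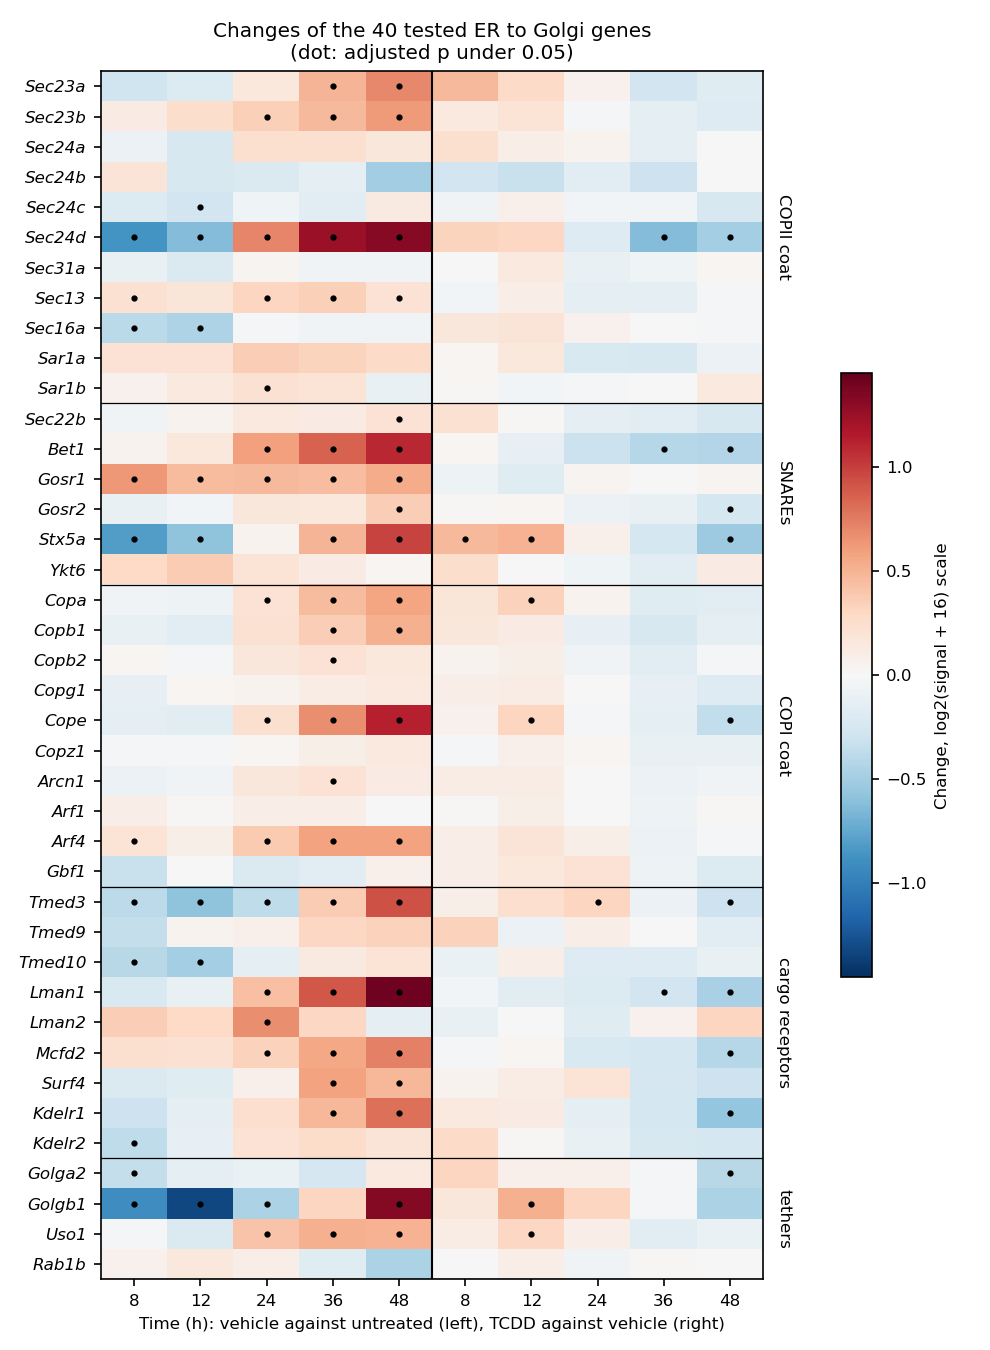
Change of each tested member (rows, grouped by role) in vehicle cells against untreated cells (left 5 columns) and in TCDD cells against vehicle cells (right 5 columns) at 8 to 48 h; colour gives the change on the log2(signal + 16) scale and a dot an adjusted p under 0.05. Of the vehicle columns, Sec24d turns from lower at 12 h to higher at 24 h, whereas Tmed3 and Golgb1 are still lower at 24 h (Golgb1 not with its probe sets averaged). The called cells at the right are red at 8 to 24 h and blue at 36 and 48 h.

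Among the 11 COPII genes, movement was centred on Sec24d, one of 4 Sec24 cargo-selecting subunits, which had the largest changes of any member at 36 h. Its vehicle arrays read 9.72, 9.52, 9.57 and 9.48 at 8 h and 11.81, 11.61, 11.59 and 11.72 at 36 h. The TCDD arrays read 10.00, 9.65, 9.81 and 10.13 at 8 h and 11.09, 10.98, 11.04 and 11.09 at 36 h. Every vehicle array at 36 h thus lay above every TCDD array at 36 h, and the groups overlapped at 8 h, where the highest vehicle array exceeded the lowest TCDD array. Against untreated cells, whose arrays read 10.93, 10.49, 10.00 and 10.31, Sec24d changed in vehicle cells by -0.86 ± 0.15 (SE) at 8 h (adjusted p = 2.01e-05 in limma) and by 1.25 ± 0.15 at 36 h (adjusted p = 1.74e-08). Without the arrays standing apart these changes were -1.14 and 0.97, and that at 24 h was 0.43 in place of 0.71, all still called. It was lower with TCDD than with vehicle by -0.63 ± 0.15 at 36 h (adjusted p = 0.00481) and by -0.50 ± 0.15 at 48 h (adjusted p = 0.0255), in 4 of 4 same-day pairs each time. The 36 h call was lost without replicate 2 (adjusted p = 0.0514) or 4 (0.0547), and the 48 h call without replicate 1, 3 or 4 (adjusted p up to 0.168).

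The 3 other Sec24 genes were not called in vehicle cells at 36 h against untreated cells. Sec24a changed by 0.23 ± 0.14 and Sec24b by -0.13 ± 0.24 in vehicle cells at 36 h, neither called, and Sec24c by -0.15 ± 0.08, also not called; Sec24c had 1 call, a fall of -0.28 ± 0.08 at 12 h (adjusted p = 0.0127) that became -0.10 without the arrays standing apart, where it was not called (adjusted p = 0.467), nor was it without replicate 2 or 4. Between 8 and 36 h Sec24a rose by 0.31 in vehicle cells, called with the day as a block or without replicate 1 and not otherwise. The change over that interval differed between TCDD and vehicle cells by -0.37, -0.02 and 0.02 for Sec24a, Sec24b and Sec24c, none called. Differences between paralogs were not tested against each other. Sec23a and Sec23b, the Sec23 paralogs of the inner coat, were both higher in vehicle cells at 36 h (0.49 ± 0.15 and 0.47 ± 0.10) and at 48 h (0.69 ± 0.15 and 0.62 ± 0.10). Untreated arrays of Sec23a read 10.77, 10.52, 10.17 and 9.84, and the last 2 are among the arrays standing apart. Without the 4 arrays Sec23a changed by 0.17 at 36 h, no longer called (adjusted p = 0.477), and by 0.45 at 48 h, still called, and was instead called lower at 8 h (-0.61) and 12 h (-0.46). Sec23a read 10.33, 10.04, 9.71 and 10.04 in vehicle cells at 8 h and 10.74, 10.46, 10.44 and 10.36 in TCDD cells at 8 h, where every TCDD array was higher, with a change of 0.47 ± 0.15 that did not pass (adjusted p = 0.0703). With the day as a block, or without the 4 arrays standing apart, Sec23a at 8 h did pass.

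The outer cage and the start of the coat moved little. Sec13 rose at 8, 24, 36 and 48 h in vehicle cells by 0.21 to 0.34, and without the 4 arrays standing apart its 8, 24 and 48 h calls were lost (0.14, 0.22 and 0.15). Sec31a had no call, with changes from -0.20 to 0.04 in vehicle cells against untreated. Sec16a fell by -0.39 ± 0.10 at 8 h (adjusted p = 0.00196) and by -0.45 ± 0.10 at 12 h (adjusted p = 0.000445), and both calls were lost without the arrays standing apart. Sar1b was called at 24 h only (0.22 ± 0.08, adjusted p = 0.0376; 0.13 and not called without the 4 arrays, nor without replicate 1, 3 or 4), and Sar1a had no call.

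Among the 6 SNARE genes, Stx5a, the syntaxin of the Golgi entry face, showed the clearest turn. Vehicle arrays read 9.73, 9.71, 9.72 and 9.68 at 8 h, 11.04, 11.01, 11.03 and 10.99 at 36 h and 11.51, 11.62, 11.55 and 11.32 at 48 h. TCDD arrays read 10.24, 10.19, 10.18 and 10.10 at 8 h, 10.84, 10.73, 10.73 and 10.73 at 36 h and 10.89, 10.76, 11.31 and 10.92 at 48 h. All TCDD arrays were therefore above all vehicle arrays at 8 h and below all of them at 36 and 48 h. The TCDD change was 0.47 ± 0.08 at 8 h (adjusted p = 0.000255 in limma), 0.51 ± 0.08 at 12 h (a 1.42-fold level; adjusted p = 4.84e-05) and -0.53 ± 0.08 at 48 h (adjusted p = 2.87e-05), each in 4 of 4 same-day pairs. The change of -0.26 at 36 h did not pass unless the day was a block or the 4 arrays were left out. Against untreated cells, vehicle cells fell by -0.81 ± 0.08 at 8 h (adjusted p = 1.35e-09) and rose by 0.98 ± 0.08 at 48 h (adjusted p = 5.4e-12). A second, dimmer Stx5a probe set moved less: 0.02 and 0.38 for TCDD at 8 and 12 h and -0.19 at 48 h, none called.

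Bet1, a SNARE of the vesicle, read 9.19, 8.99, 8.40 and 8.87 in untreated cells and 9.78, 9.60, 9.74 and 9.76 in vehicle cells at 36 h, with no overlap. It rose by 0.59 ± 0.13, 0.86 ± 0.13 and 1.10 ± 0.13 at 24, 36 and 48 h in vehicle cells, and the 24 h change was 0.37 without the 4 arrays, still called. In TCDD cells it read 9.42, 9.35, 9.30 and 9.14 at 36 h, below every vehicle array (change -0.41 ± 0.13, adjusted p = 0.0466), and was lower at 48 h by -0.43 ± 0.13 (adjusted p = 0.028). Both TCDD calls were lost without any 1 of the 4 days, with adjusted p from 0.0507 to 0.299. Gosr1, a Golgi SNARE, was higher than untreated at all 5 times (0.44 to 0.63), but untreated arrays ran from 8.39 to 9.40 and the calls were lost without the arrays standing apart, where the change was 0.30 at 8 h and 0.14 at 24 h. Gosr2 was higher at 48 h in vehicle cells (0.36 ± 0.07) and lower with TCDD at that time (-0.26 ± 0.07, adjusted p = 0.00908), a call lost without replicate 1, 2 or 3 (adjusted p = 0.213 without replicate 2). Sec22b rose by 0.20 ± 0.08 at 48 h, a call lost without replicate 1, 2 or 3, and Ykt6 had no call in these comparisons.

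**Figure D3:**
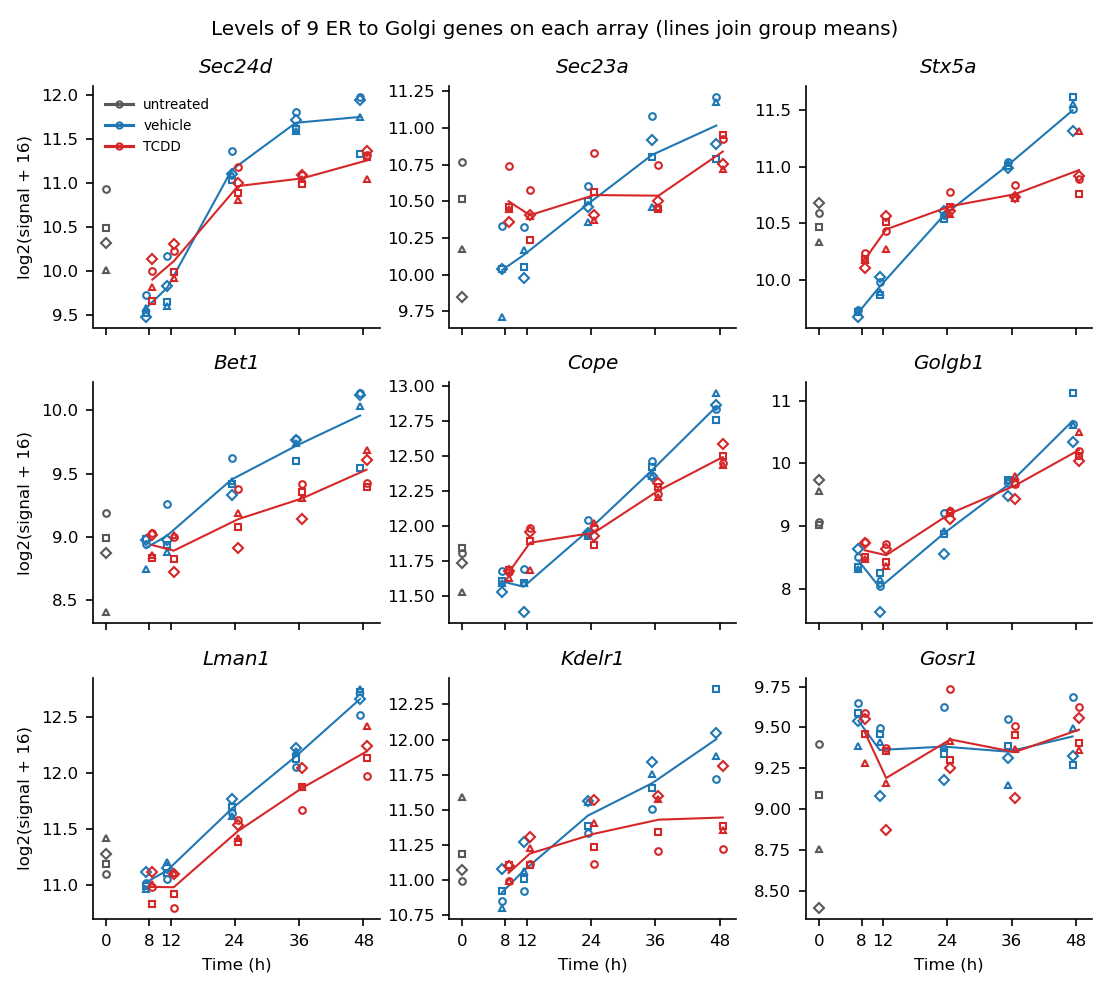
Log2(signal + 16) on each array (y axes) against time in hours (x axes) for 9 members; grey, untreated; blue, vehicle; red, TCDD; symbols mark replicates and lines join group means. For Sec24d, Stx5a and Lman1 all 4 TCDD arrays at 36 h lie below all 4 vehicle arrays, whereas Gosr1 shows overlapping TCDD and vehicle arrays at all times.

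Of the 10 COPI genes, Cope, the epsilon subunit of coatomer, moved most. Its arrays read 11.81, 11.84, 11.52 and 11.74 in untreated cells, 12.46, 12.42, 12.35 and 12.35 in vehicle cells at 36 h and 12.83, 12.75, 12.95 and 12.86 at 48 h. TCDD arrays at 48 h read 12.45, 12.49, 12.43 and 12.59, all below vehicle and all above untreated cells. Vehicle cells gained 0.67 ± 0.07 at 36 h (adjusted p = 1.44e-09) and 1.12 ± 0.07 at 48 h (adjusted p = 1.81e-15). Cope was higher with TCDD at 12 h by 0.31 ± 0.07 (adjusted p = 0.00228; 0.133 without replicate 4) and lower at 48 h by -0.36 ± 0.07 (adjusted p = 0.000497), each in 4 of 4 same-day pairs.

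Other coatomer subunits rose less. Copa, the alpha subunit, read 12.70, 12.74, 12.74 and 12.67 in vehicle cells at 12 h and between 12.96 and 13.21 in TCDD cells, with no overlap (change 0.34 ± 0.07, adjusted p = 0.00218; 0.0576 without replicate 2). In vehicle cells Copa rose by 0.22 ± 0.07, 0.46 ± 0.07 and 0.57 ± 0.07 at 24, 36 and 48 h, and Copb1 by 0.36 ± 0.10 and 0.52 ± 0.10 at 36 and 48 h. Without the 4 arrays Copa at 24 h (0.16), Cope at 24 h (0.14 against 0.24) and Copb1 at 36 h (0.21) were not called. Copb2 and Arcn1 passed at 36 h alone among the comparisons with untreated cells, at 0.21 ± 0.07 and 0.21 ± 0.08. Without the 4 arrays these were 0.17 and 0.06, neither called, and neither call held without replicate 2, 3 or 4. Arf4, one of the GTPases, rose by 0.20 ± 0.07 at 8 h and by 0.58 ± 0.07 at both 36 and 48 h. The 8 h call was lost without the 4 arrays (0.18) or replicate 2, 3 or 4, and averaging the gene's probe sets turned it to -0.0687. With TCDD Arf4 was 0.19 ± 0.07 higher at 12 h, called with the day as a block (adjusted p = 0.0171) and not without it. Arf1 had the narrowest range of all members, with group means from 14.54 to 14.65, and Copz1 and Gbf1 were not called either.

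Among the 10 cargo receptor genes, Lman1 (ERGIC-53, a lectin that carries glycoproteins out of the ER) and its partner Mcfd2 both rose at the later times. At 8 h in vehicle cells against untreated the brightest probe set of each went opposite ways, with changes of -0.22 and 0.23. Neither was called there, but both were with the day as a block. Another Lman1 probe set, given below, was higher than untreated at 8 h, as Mcfd2 was. Lman1 read 11.10, 11.19, 11.42 and 11.28 in untreated cells and 12.51, 12.72, 12.75 and 12.66 in vehicle cells at 48 h, a change of 1.41 ± 0.09 (2.66-fold; adjusted p = 1.81e-15). TCDD cells at 48 h read 11.97, 12.14, 12.42 and 12.24, below every vehicle array (change -0.47 ± 0.09, adjusted p = 0.00035). At 36 h the TCDD change was -0.28 ± 0.09 (adjusted p = 0.049), a call lost without any 1 of the 4 days (adjusted p from 0.108 to 0.257). Mcfd2 rose by 0.33 ± 0.09, 0.56 ± 0.09 and 0.73 ± 0.09 at 24, 36 and 48 h in vehicle cells and was lower with TCDD at 48 h by -0.41 ± 0.09 (adjusted p = 0.00136), reading 10.68, 10.65, 10.87 and 10.94 against 11.20, 11.03, 11.27 and 11.29 with no overlap.

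Kdelr1, a receptor that returns escaped ER proteins, had the largest TCDD change at 48 h. Vehicle arrays read 11.72, 12.36, 11.88 and 12.05, and TCDD arrays 11.22, 11.39, 11.36 and 11.81, so that 1 TCDD array reached into the vehicle range. The change was -0.56 ± 0.13 (adjusted p = 0.00398), lower in 4 of 4 same-day pairs. The highest vehicle value is that of replicate 2, one of the arrays standing apart. The change was -0.44 and still called without the 4 arrays, but not called without replicate 2 of every group (adjusted p = 0.193). Kdelr2 was lower than untreated at 8 h (-0.37 ± 0.13, adjusted p = 0.0428) and had no TCDD call at a single time. Without the 4 arrays the 8 h change was -0.15 and not called (adjusted p = 0.484), and Kdelr2 was called higher at 24 h (0.42) and 36 h (0.48). Tmed3, a p24 cargo receptor, fell by -0.38, -0.59 and -0.36 at 8, 12 and 24 h in vehicle cells and rose by 0.36 at 36 h and 0.92 at 48 h (each SE 0.10). It was higher with TCDD at 24 h by 0.32 ± 0.10 (adjusted p = 0.0354) and lower at 48 h by -0.30 ± 0.10 (adjusted p = 0.0436). The 24 h call was lost without any 1 of the 4 days (adjusted p up to 0.206) and the 48 h call without replicate 1, 2 or 4 (up to 0.447) or the arrays standing apart (0.199). Tmed10 fell by -0.41 ± 0.08 at 8 h and -0.50 ± 0.08 at 12 h. Lman2 rose by 0.67 ± 0.17 at 24 h, a call lost without replicate 3 (adjusted p = 0.113). Surf4 rose by 0.58 ± 0.15 at 36 h and 0.48 ± 0.15 at 48 h, both calls lost without replicate 1 and the second also without the 4 arrays.

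The 4 tethers did not move as one. Golgb1 (giantin, a long coiled-coil protein of the Golgi rim) had the widest range of group means of all members, from 8.02 in vehicle cells at 12 h to 10.68 in vehicle cells at 48 h. It read 9.07, 9.02, 9.57 and 9.74 in untreated cells, 8.05, 8.25, 8.16 and 7.63 in vehicle cells at 12 h and 10.63, 11.12, 10.61 and 10.34 at 48 h. The change was -1.32 ± 0.16 at 12 h (adjusted p = 2.18e-08) and 1.33 ± 0.16 at 48 h (adjusted p = 7.69e-09); without the 4 arrays the 12 h value was -0.89, still called, and Golgb1 was called higher at 36 h (0.62 against 0.31). The 24 h fall of -0.46 ± 0.16 was not called without them (-0.15). TCDD cells at 12 h read 8.72, 8.43, 8.36 and 8.64, above every vehicle array (0.51 ± 0.16, adjusted p = 0.0288), a call lost without replicate 1, 3 or 4 (adjusted p up to 0.193). A second Golgb1 probe set, close to the filter, gave 0.49 at 8 h and -0.22 at 48 h in vehicle cells, neither called. Averaging the Golgb1 probe sets ended each of its calls, so the course of this gene rests on 1 of its 3 probe sets.

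Uso1 (p115), which tethers incoming vesicles, rose in vehicle cells by 0.41 ± 0.08, 0.52 ± 0.08 and 0.50 ± 0.08 at 24, 36 and 48 h (0.26 at 24 h without the 4 arrays, still called) and was higher with TCDD at 12 h (0.30 ± 0.08, adjusted p = 0.0182; 0.155 without replicate 2). Golga2 (GM130) changed by -0.34 ± 0.11 at 8 h (-0.21 and not called without the 4 arrays) and was lower with TCDD at 48 h by -0.40 ± 0.11 (adjusted p = 0.0213), reading 9.42, 9.48, 9.64 and 9.47 against 10.00, 10.11, 9.77 and 9.73. That call was lost without replicate 1 or 2 (adjusted p = 0.106 and 0.231) and without the arrays standing apart (0.0786). Rab1b, the GTPase that recruits tethers, had no call, although its change of -0.46 in vehicle cells at 48 h was called with the day as a block. In all, 8 members were called in none of the 14 comparisons made here: Arf1, Copz1, Gbf1, Rab1b, Sar1a, Sec24a, Sec24b and Sec31a. With the day as a block, 5 of these 8 were called in at least 1. The same count was not made over all genes, so these numbers do not set the members against other genes.

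The change from 8 to 36 h was compared within each treatment, since those arrays include none that stood apart and the vehicle and TCDD pairs share no array. In vehicle cells 24 of 40 members rose between 8 and 36 h and none passed downward (18.3% of all genes rose and 16.7% fell; 26 members were higher and none lower at an unadjusted p under 0.05), with a median of 0.32. In TCDD cells 12 rose and 2 fell (14.2% and 11.7% of all genes), with a median of 0.10. Cargo receptors made up 8 of the 24 risers in vehicle cells, of 9 tested, and coatomer and its GTPases 7 of 10. The largest vehicle changes were those of Sec24d (2.11 ± 0.15, a 4.32-fold rise), Stx5a (1.31 ± 0.08), Golgb1 (1.21 ± 0.16) and Lman1 (1.12 ± 0.09). In TCDD cells these genes changed by 1.15 ± 0.15, 0.58 ± 0.08, 1.03 ± 0.16 and 0.88 ± 0.09. The members that fell in limma were Ykt6 (-0.57 ± 0.18, adjusted p = 0.0187) and Sec22b (-0.21 ± 0.08, adjusted p = 0.043). Averaging the gene's probe sets reversed the Sec22b change to 0.0395.

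The difference between those changes was then tested directly. It was negative for 36 of 40 members, with a median of -0.21 against -0.0016 for all genes tested, and passed for 3, all lower with TCDD (1.18% of all genes lower, 1.14% higher): Sec24d (-0.96 ± 0.21, adjusted p = 0.00633), Sec23a (-0.75 ± 0.21, adjusted p = 0.0495) and Stx5a (-0.73 ± 0.12, adjusted p = 0.000251). Sec23a rose by 0.79 ± 0.15 in vehicle cells and by 0.04 ± 0.15 in TCDD cells. For the dimmer Stx5a probe set the difference was -0.32 ± 0.28 and was not called. The call for Sec24d was lost without replicate 2 or 4 (adjusted p = 0.0593 and 0.139) and that for Sec23a without replicate 2, 3 or 4 (up to 0.34). With the day as a block 7 members passed, Sec22b, Copa, Copb1 and Kdelr2 in addition. The share of all genes passing in that fit is not given. All 3 called members hold TGACGTGG, as do Copb1, Copb2, Gbf1 and Arf1, which were not called. Since the promoters were put forward for these members, this is a description only.

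**Figure D4:**
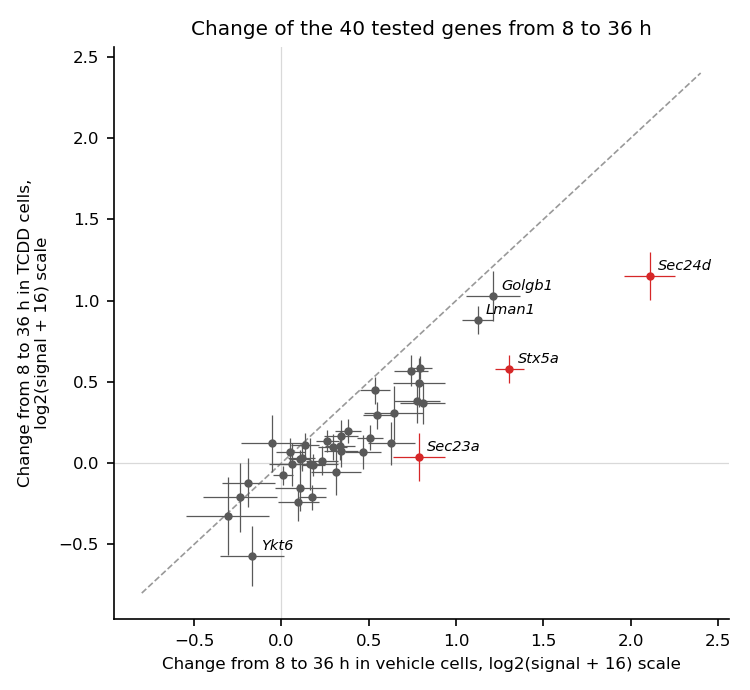
Change from 8 to 36 h of each tested member in vehicle cells (x axis) and in TCDD cells (y axis), both on the log2(signal + 16) scale with SE bars; the dashed line marks equal change, and red marks the 3 members whose changes differed at an adjusted p under 0.05. Most points lie below the line, with Sec24d at 2.11 and 1.15.

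An F test over all 5 times asked whether the TCDD effect varied with time. It passed for 9 of 40 members (6.98% of all genes): Stx5a (adjusted p = 2.05e-07), Cope (0.000193), Sec24d (0.00187), Copa (0.00263), Tmed3 (0.0103), Golgb1 (0.0234), Sec22b (0.0346), Golga2 (0.0378) and Kdelr1 (0.0456) in limma. With the day as a block 15 passed, and with 1 day left out 3 to 5. The share of all genes passing in those fits is not given here, so these counts show only how the calls moved. Stx5a and Cope went from higher with TCDD at 12 h to lower at 48 h, and both of those single-time changes passed. The dimmer Stx5a probe set did not pass the F test.

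Other genes of the secretory route were read from the same fit, and differences between the lists were not tested. Of 75 further tested ER-Golgi genes (TRAPP and COG tethers, golgins, further p24 and Rab proteins), 19 rose and 9 fell in vehicle cells between 8 and 36 h (18.3% and 16.7% of all genes), with a median of 0.15 against 0.32 for the members. In TCDD cells over the same interval 10 rose and 13 fell (14.2% and 11.7% of all genes), with a median of 0.13 against 0.10. In vehicle cells at 48 h against untreated 32 rose and 9 fell (23.4% and 20.5% of all genes), with a median of 0.22 against 0.24. Arfgap3, a GTPase-activating protein for Arf1 (1.90 ± 0.15), Kdelr3, the third KDEL receptor (1.88 ± 0.36), and Nbas, a tether subunit (1.29 ± 0.12), rose most, and Nsf, the ATPase that takes SNARE complexes apart (-1.19 ± 0.10), Arfgap2 (-0.54 ± 0.10) and Pdcd6, a partner of Sec31a (-0.47 ± 0.09), fell most. Of 71 post-Golgi and endosome genes, 10 rose and 15 fell in vehicle cells between 8 and 36 h (18.3% and 16.7% of all genes), with a median of 0.01. Examples are Ap3s1 (0.69 ± 0.14), Exoc4 (0.48 ± 0.15) and Ap2m1 (0.45 ± 0.10) upward and Vps33a (-0.96 ± 0.15), Vps26a (-0.66 ± 0.13) and Eea1 (-0.58 ± 0.14) downward. With TCDD at 36 h, Cog6 (-0.42 ± 0.11) and Trappc1 (-0.30 ± 0.08) of the early list were lower, and of the late list Vamp8 was lower (-0.31 ± 0.08) and Exoc3 (0.63 ± 0.10) and M6pr (0.36 ± 0.07) higher. At 48 h with TCDD, 9 of 75 early genes were lower and 4 higher, and 2 of 71 late genes were lower and 3 higher. Of all genes, 4.54% were lower and 4.31% higher.

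**Figure D5:**
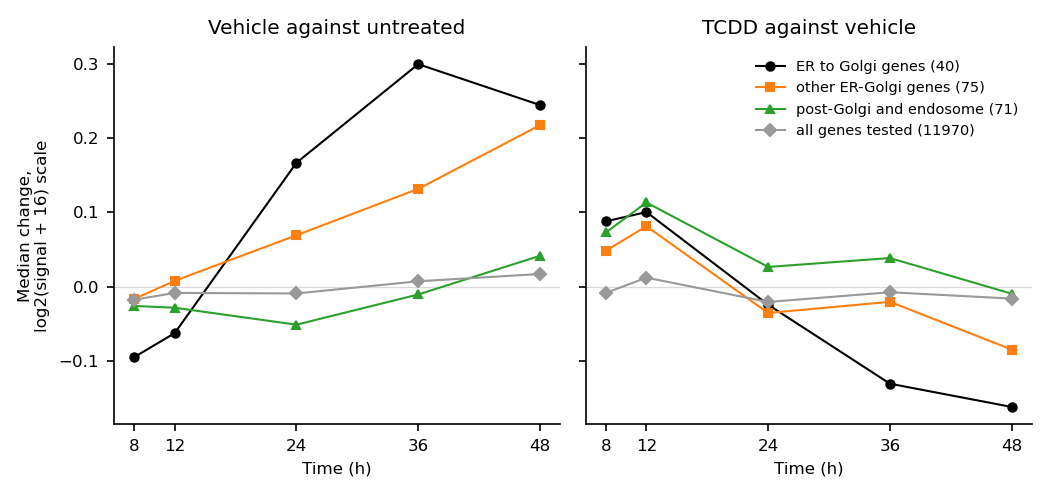
Median change on the log2(signal + 16) scale (y axes) against time in hours (x axes) for the 40 tested ER to Golgi genes, 75 other ER-Golgi genes, 71 post-Golgi and endosome genes and all genes tested, in vehicle against untreated cells (left) and TCDD against vehicle cells (right). The ER to Golgi genes reach 0.30 at 36 h on the left and -0.16 at 48 h on the right, and the median of all genes stays within 0.02 of 0.

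Regulators known to act on secretory genes were measured on the same arrays. Between 8 and 36 h in vehicle cells, Xbp1 rose by 1.5 ± 0.07, Atf4 by 1.34 ± 0.11, Creb3l1 by 1.29 ± 0.18 and Creb3l2 by 1.20 ± 0.12. Atf6 rose by 0.97 ± 0.11, Prdm1 by 0.84 ± 0.14, Ern1 by 0.65 ± 0.15 and Creb3 by 0.33 ± 0.10. Irf4 fell by -0.64 ± 0.11. Of 11 tested, 8 rose and 1 fell (18.3% and 16.7% of all genes). Xbp1 means in vehicle cells were 12.19, 12.44, 13.43, 13.69 and 13.88 at 8 to 48 h and in TCDD cells 12.65, 13.02, 13.40, 13.41 and 13.49, higher than vehicle at 8 and 12 h and lower at 36 and 48 h. At 36 h Xbp1 (-0.27 ± 0.07, adjusted p = 0.00831) and Prdm1, a repressor that drives plasma cell differentiation (-0.57 ± 0.14, adjusted p = 0.0063), were the 2 of 11 regulators called in limma. Both were lower with TCDD (2.4% of all genes lower, 3.49% higher). Prdm1 had been higher with TCDD at 8 h (0.49 ± 0.14, adjusted p = 0.0282). Total RNA on these arrays does not separate the spliced, active form of Xbp1.

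Marker sums were read in the same arrays. A sum of signals weighs bright genes most, which among the plasma cell genes were Xbp1 (mean 13.69 in vehicle cells at 36 h) and Irf4 (12.46). The summed signal of 8 plasma cell genes ran from 24266 to 25268 in vehicle cells at 36 h and from 19141 to 21362 in TCDD cells, and from 26243 to 27778 against 20377 to 21845 at 48 h. Fkbp11, an ER folding enzyme among them, was lower with TCDD at 36 h (-0.44 ± 0.10), whereas Tnfrsf17 and Slamf7 stayed below the filter. The summed signal of 8 B cell genes overlapped between treatments at 36 h (46102 to 50920 in vehicle cells, 47385 to 51432 in TCDD cells). Of these genes, Ighm had the lowest change with TCDD at 36 h (-0.66, from a mean of 12.67 to 12.01). The change was positive for 5 of the 8 (5802 of 11970 genes tested), and 0 were called (3.49% of all genes higher, 2.4% lower). At 8 and 12 h the plasma cell sums overlapped between treatments. The sum of 7 macrophage genes was higher with TCDD at 8, 12, 24 and 36 h with no overlap and overlapped at 48 h. At 36 h it ran from 2339 to 2539 against 1466 to 1688, with Csf1r (1.58 ± 0.09) and Adgre1 (0.82 ± 0.20) higher and Lyz2 and Itgam below the filter. Cd68 of the same list changed by -0.25 ± 0.12 at 36 h, not called, and was lower with TCDD at 48 h (-0.60 ± 0.12). The part of these shifts in the members' values was not tested.

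Several members have further probe sets, and these did not always move alike. For Lman1, 2 of 4 other probe sets rose as the main one did between 8 and 36 h in vehicle cells (1.10 ± 0.11 and 0.86 ± 0.08) and were lower with TCDD at 48 h (-0.42 and -0.32), while the 2 dimmer ones were not called. At 8 h one of the former was higher than untreated (0.30 ± 0.11) where the main one was not called (-0.22). A second Bet1 probe set rose by 1.35 ± 0.20 between 8 and 36 h, against 0.81 ± 0.13 for the main one. A dimmer Copa probe set was lower at 8 h (-1.17 ± 0.36) where the main one changed by -0.05, and that of Tmed3 was called in none of the comparisons given for it above. Tests on single probe sets were adjusted over 21775 probe sets.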

How the data were processed

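RNA from 44 CH12.LX cultures was measured on Affymetrix mouse arrays of 45101 probe sets. The deposited values are intensities for which the submitters' processing notes name GCOS 1.0; in the files the 2%-trimmed mean of each array is the same, and other steps by the authors are not stated in the labels. Here the 64 control probe sets were removed, signals were quantile normalized, and log2(signal + 16) was taken, which understates changes of dim genes. Probe sets with 1 symbol in the platform annotation numbered 34945, 932 had several and 9160 none. A gene was its brightest such probe set and was tested if its highest group mean exceeded the median of all values (6.21). limma 3.58.1 in R 4.3.3 fitted 11 group means over all 44 arrays, with Benjamini-Hochberg adjustment over 11970 genes; the steps were tested on simulated data. Errors are SE, each group has 4 arrays, and that number limits the precision.

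Replicate numbers mark shared days in the study's design text: deviations of same-numbered arrays of different groups had a median r of 0.18 (-0.07 for arrays of different numbers), and 18 of 20 TCDD and DMSO pairs exceeded 0.1. Members and lists were chosen with earlier results of these data known. The members called with the largest changes, up to 4 in each direction, are given in full, and up to 3 genes in each direction of the other lists. Alternatives were the replicate block, values as deposited, no filter, pseudocounts of 1 and 64, averaging all probe sets of a gene, only the arrays compared, leaving out each replicate and, chosen after seeing the data, leaving out 4 arrays that stood apart (replicates 3 and 4 of the untreated cells, and in DMSO cells replicate 4 of 12 h and replicate 2 of 48 h). Promoter windows are those of RefSeq on GRCm38.p6.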

Additional observations from a re-analysis of the deposited data

Results flagged for a closer look

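In 8 of 198 groups of 4 arrays examined, 1 array lay far from the other 3, with a gap past Dixon's critical value; chance marks about 1 in 20 groups. Arf4 was low in TCDD 48 h replicate 1 (gap 0.914 of the group's range; 13.27 against 13.50 to 13.52) and Bet1 in DMSO 8 h replicate 3 (0.855; 8.75 against 8.95 to 8.98). Copa was high in TCDD 24 h replicate 3 (0.839; 13.27 against 12.96 to 13.01), Cope in DMSO 24 h replicate 1 (0.851; 12.04 against 11.93 to 11.94) and Stx5a in TCDD 36 h replicate 1 (0.948; 10.84 against 10.73 in the other 3). Lman2 was low in replicate 1 of TCDD 8 h (0.957; 10.04 against 10.46 to 10.48) and of DMSO 12 h (0.978; 10.07 against 10.50 to 10.51), and Sec13 in DMSO 8 h replicate 1 (0.895; 11.96 against 12.10 to 12.12).

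The TCDD effect differed between times in limma's F test for Stx5a (adjusted p = 2.05e-07), Cope (0.000193), Sec24d (0.00187), Copa (0.00263), Tmed3 (0.0103), Golgb1 (0.0234), Sec22b (0.0346), Golga2 (0.0378) and Kdelr1 (0.0456). The change from 8 to 36 h differed between TCDD and vehicle cells for Stx5a (adjusted p = 0.000251), Sec24d (0.00633) and Sec23a (0.0495).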

How the results depend on the processing

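Of 168 counts of called members over 14 comparisons and 12 alternatives, 121 stayed within 1.5 times the reported count. With the replicate block, which pairs arrays of one day, the count was 17 and 13 for vehicle against untreated cells at 8 and 12 h, 3, 2 and 6 for TCDD against vehicle at 8, 24 and 36 h, 15 for the F test over times and 7 for the difference in change from 8 to 36 h, and all 52 named changes kept their call. With only the arrays compared it was 6, 5, 2 and 11 for vehicle at 8, 12, 24 and 36 h and 1, 0 and 0 for TCDD at 12, 24 and 48 h in limma, where 7 and 13 members had an unadjusted p under 0.05 at 24 and 48 h. With all probe sets of a gene averaged it was 0, 3 and 0 for TCDD at 8, 12 and 24 h and 5 for the F test; without the filter, 0 and 1 for TCDD at 24 and 36 h. Without the 4 arrays standing apart it was 2, 3 and 5 for TCDD at 8, 24 and 36 h. With 1 replicate left out it ran from 6 to 10 and 8 to 13 for vehicle at 8 and 24 h, 1 to 2, 2 to 4, 0 to 0, 0 to 1 and 5 to 8 for TCDD at 8 to 48 h, 3 to 5 for the F test, 8 to 11 for TCDD cells from 8 to 36 h and 1 to 4 for the difference. Averaging probe sets reversed Arf4 at 8 h (-0.0687) and Golgb1 at 24 h (0.0622) in vehicle cells and Sec22b from 8 to 36 h in TCDD cells (0.0395). The cause was not tested for these shifts, except that averaging brings in dimmer probe sets and leaving out arrays uses fewer samples. Counts under the alternatives are given throughout without the share of all genes called by the same fit. They show how the calls moved and do not set the members against other genes.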
